A study of Mus musculus with 2 samples.

Results

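The genes described here are 10 immediate early genes, chosen by name from the 31053 genes counted in each library. They are the AP-1 subunit genes Fos, Fosb, Jun, Junb, Jund and Atf3, the zinc finger transcription factor gene Egr1, the nuclear receptor gene Nr4a1, Ier2 and the phosphatase gene Dusp1. Their transcripts were counted by droplet single-cell RNA sequencing in 2 libraries of mouse hippocampus, an Mr1-/- library and an Mr1+/+ library, both from untreated mice 7 months old. MR1 is the presenting molecule for mucosal-associated invariant T cells, which recognise vitamin B derivatives bound to it. The cells were freed with a primary neuron isolation kit and sorted as DAPI-negative, Draq5-positive events, that is, as live nucleated cells. The sources used here do not give how many mice each library holds or how the Mr1 allele was made, and they name no other allele or agent.

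Immediate early genes are transcribed within minutes of a stimulus, without any new protein being made. MAP kinases and calcium signals activate factors already bound at their promoters, such as SRF with its ELK partners and CREB. FOS proteins pair with JUN proteins to form AP-1, which binds DNA and regulates later genes, and DUSP1 removes phosphate from MAP kinases and so limits the signal. In the brain these genes are known as markers of neuronal activity, and in glia and vessels they respond to injury, cytokines and blood flow. They are also known to be induced while tissue is dissociated into cells, a step that both libraries went through, and what was present in the tissue cannot be told apart here from what was made during preparation.

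The data were raw counts of unique molecular identifiers (UMIs), each of which marks a captured transcript. The Mr1-/- library had 18349132 UMIs in 5347 barcodes and the Mr1+/+ library 23244575 UMIs in 6410 barcodes, of which 44 barcodes occurred in both. After filtering, 5107 Mr1-/- and 5992 Mr1+/+ cells were kept, with 2 Mr1 UMIs in the Mr1-/- cells and 130 in the Mr1+/+ cells. Cells were clustered without the 10 genes and 30 further immediate early genes, and clusters were named from markers. Of the classes formed, 8 had at least 50 cells in each library and 5 of these had at least 200. Levels are UMIs per 1000000 UMIs of the class (CPM), and ratios are Mr1-/- over Mr1+/+ with 95% intervals that cover counting error only. With 1 library per genotype no test was possible, so differences between mice, dissections, sorts or library preparations cannot be told apart from genotype.

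Promoter windows of 250 bases before to 50 bases after the start site were available from RefSeq (GRCm38.p6) for 8 of the 10 genes, all but Egr1 and Ier2. Those of Fos, Dusp1 and Nr4a1 are shown because these genes differed in different cell classes, and because they hold several copies of the core of the CREB site. Each gene had 1 window, so other start sites are not covered. The Dusp1 and Nr4a1 windows lie inside the longer spans that GENCODE M21 gives these genes. Capitals mark TGACG or its reverse complement, the full site TGACGTCA, the EGR site GCGNGGGCG in either strand, and TATAAA. The windows are chr12:85473640-85473939 on the plus strand for Fos, chr17:26508423-26508722 on the minus strand for Dusp1 and chr15:101266596-101266895 on the plus strand for Nr4a1.
Fos: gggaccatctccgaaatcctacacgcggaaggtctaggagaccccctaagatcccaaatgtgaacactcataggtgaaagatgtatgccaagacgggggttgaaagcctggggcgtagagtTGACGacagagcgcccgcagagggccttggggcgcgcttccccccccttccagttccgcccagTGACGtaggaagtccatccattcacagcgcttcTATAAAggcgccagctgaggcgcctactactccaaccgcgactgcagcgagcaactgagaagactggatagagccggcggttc
Dusp1: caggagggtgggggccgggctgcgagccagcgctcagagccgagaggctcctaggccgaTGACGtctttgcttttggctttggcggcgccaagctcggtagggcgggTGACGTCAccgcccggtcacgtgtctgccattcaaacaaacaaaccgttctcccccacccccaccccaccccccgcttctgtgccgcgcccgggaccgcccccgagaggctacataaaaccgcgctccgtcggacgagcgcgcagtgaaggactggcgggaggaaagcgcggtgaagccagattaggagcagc
Nr4a1: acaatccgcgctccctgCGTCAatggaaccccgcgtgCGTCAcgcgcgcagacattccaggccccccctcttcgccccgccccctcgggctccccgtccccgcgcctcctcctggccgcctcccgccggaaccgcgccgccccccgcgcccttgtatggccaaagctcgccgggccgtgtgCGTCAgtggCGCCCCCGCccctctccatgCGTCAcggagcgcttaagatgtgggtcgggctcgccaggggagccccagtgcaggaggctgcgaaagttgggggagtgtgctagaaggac

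TGACG, searched in both strands, was found in 6 of the 8 windows, against 20.8% of 32851 promoter windows of the same length. In the Fos window it began at -129 and -66 from the start, and TATAAA began at -33. The Nr4a1 window held it 4 times, from -233 to -40. The full site TGACGTCA, which contains TGACG on each strand, occurred in the Dusp1 window alone among the 8, at -143, and in 1.79% of all windows. The EGR site occurred in 2 of the 8 windows, those of Fosb and Nr4a1, against 5.55% of all. TATAAA in either strand occurred in 2, those of Fos and Junb, against 13.6% of all. In the Junb window it began at 0, that is, at the start and not before it. The AP-1 site TGANTCA (7.81% of all windows) and the CArG box bound by SRF (1.63%) were found in none of the 8. These are matches of letters in a short window, and say nothing of what is bound there.

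Each gene had its own distribution over cell classes. Fos, Fosb, Jun and Junb were highest in microglia-like cells in both libraries, and microglia are the macrophages of brain tissue. Atf3 and Egr1 were highest there in the Mr1-/- library, but in the Mr1+/+ library Atf3 was highest in endothelial-like cells (46.4 CPM) and Egr1 in mural-like cells (41.0 CPM). Fos had 261 CPM in Mr1-/- and 159 CPM in Mr1+/+ microglia-like cells, then 106 and 105 CPM in mural-like cells, the contractile cells of vessel walls, and 45.8 and 27.2 CPM in endothelial-like cells, which line the vessels. Among mural-like cells Fos was at 182 and 166 CPM in the Tagln-led cluster, against 16.8 and 14.8 CPM in the Kcnj8-led one. The Tagln-led level in the Mr1+/+ library was thus close to that of microglia-like cells. Among endothelial-like cells Fos was at 97.2 and 58.9 CPM in the Gkn3-led and 10.6 and 6.16 CPM in the Hmcn1-led cluster. Neuroblast-like cells had 44.3 and 23.9 CPM of Fos from 11 and 6 UMIs, a level that counting error does not separate from the endothelial one. Astrocyte-like cells had 15.7 and 19.7 CPM, and oligodendrocyte-like, neuron-like and ependymal-like cells had at most 6.55 CPM in either library. Jun was at 992 and 801 CPM in microglia-like cells and 394 and 334 CPM in endothelial-like cells, and at its lowest, 64.2 and 55.8 CPM, in astrocyte-like cells. Junb had 764 and 651 CPM in microglia-like cells, at most 183 CPM in endothelial-like and mural-like cells and 3.82 and 4.79 CPM in oligodendrocyte-like cells.

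Jund, whose product is the JUN protein least dependent on stimulation, was the most even of the 10 across classes. It ranged from 221 and 202 CPM in astrocyte-like cells to 940 CPM (oligodendrocyte-like) in the Mr1-/- library and 777 CPM (mural-like) in the Mr1+/+ library. Between 1774 and 4564 UMIs stood behind it in each library of the 4 best covered classes.

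Several genes were highest outside microglia-like cells. Ier2, a nuclear protein gene of the growth factor response, had 477 and 460 CPM in endothelial-like cells, followed by 132 and 103 CPM in mural-like, 130 and 94.2 CPM in microglia-like and 92.6 and 95.5 CPM in neuroblast-like cells, which counting error does not put in order in both libraries. Dusp1 was also highest in endothelial-like cells, with 244 and 448 CPM, followed by mural-like cells with 141 and 210 CPM. Nr4a1 was at 37.2 and 54.0 CPM in oligodendrocyte-like cells, the myelin-forming cells, and at 41.8 and 37.3 CPM in mural-like cells, and counting error did not separate these classes in the Mr1-/- library. In microglia-like cells Nr4a1 had 20 and 9 UMIs. Atf3 had no UMI in 477 Mr1-/- and 957 Mr1+/+ astrocyte-like cells, which allows a share of up to 0.629% and 0.313% of cells with a UMI. Neuron-like cells (166 and 275) had few UMIs of Fos (2 and 7), Egr1 (12 and 15) and Nr4a1 (4 and 9). Most of them, 159 and 258, were in a cluster led by Reln, a gene of Cajal-Retzius cells, while the 7 and 17 cells of a cluster led by Nrgn and Cck held 2 and 8 of the Egr1 UMIs and 0 and 5 of the Nr4a1 UMIs.

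**Figure D1:**
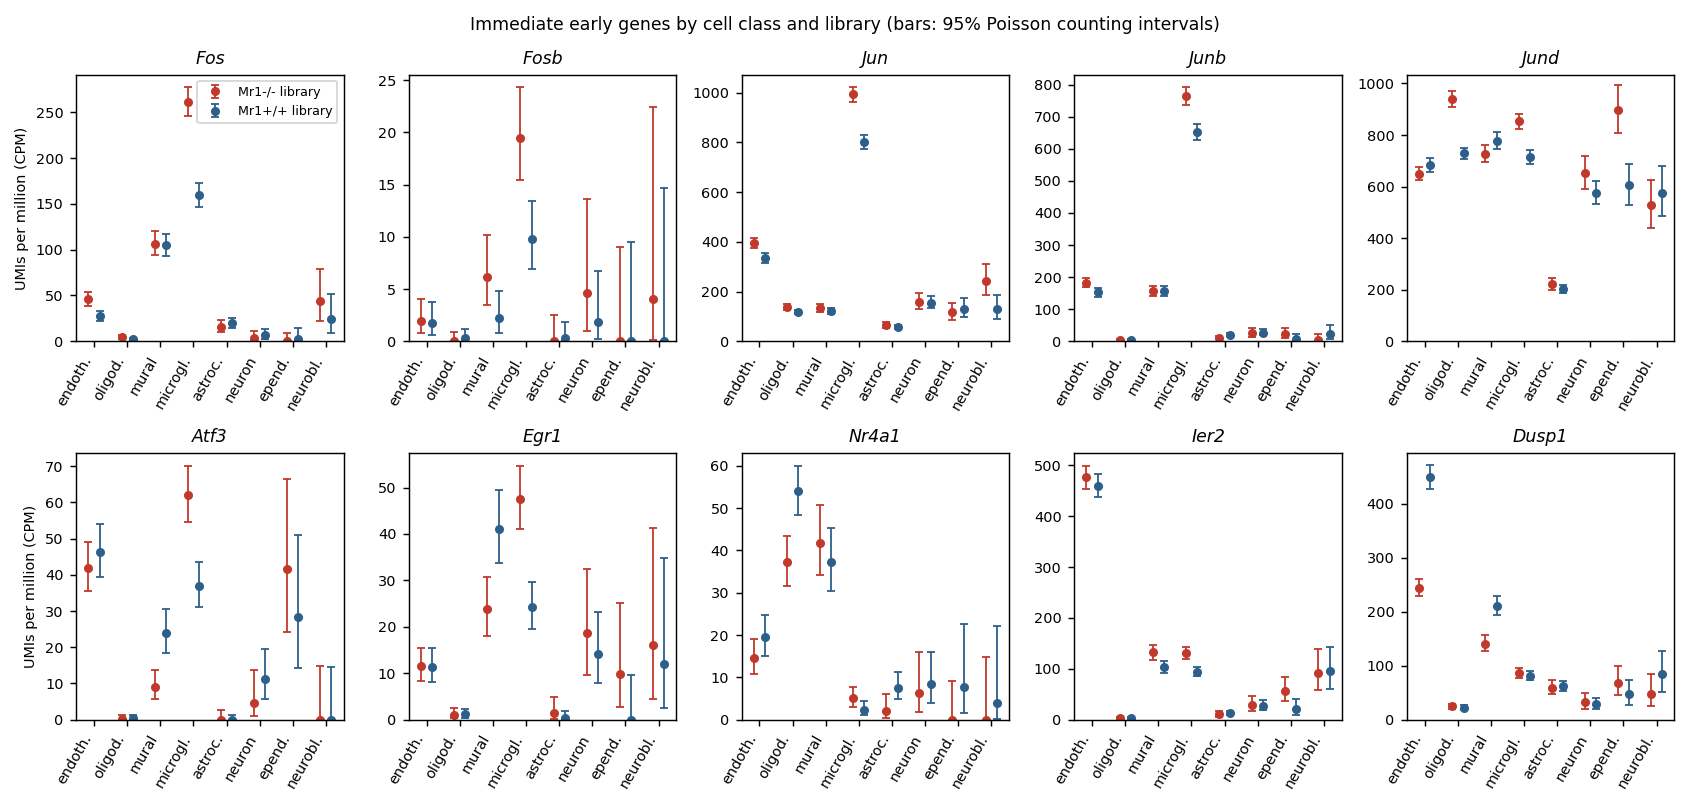
Level of each gene (UMIs per 1000000 UMIs of the class, linear axes that differ between panels) in 8 cell classes of the Mr1-/- and Mr1+/+ libraries, with 95% Poisson intervals for counting error. Fos, Fosb, Jun, Junb, Atf3 and Egr1 reach their highest bar in Mr1-/- microglia-like cells, Ier2 and Dusp1 in endothelial-like cells, and Dusp1 is at 244 CPM in Mr1-/- and 448 CPM in Mr1+/+ endothelial-like cells.

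Microglia-like cells of the Mr1-/- library had higher levels of the 9 members that could be compared, with Dusp1 alone close to no difference. Summed over the 10 genes they had 3221 CPM, against 2575 CPM in the Mr1+/+ library (ratio 1.251, 1.22 to 1.28), from 786 and 730 cells. Of the 9 genes with at least 50 UMIs, 9 were higher. Counted after 10 CPM was added to both libraries, 5 of the 9 were at least 25% higher and none was at least 20% lower. Over all 8866 genes compared in this class, 43.4% were higher, 1.93% were at least 25% higher and 3.02% at least 20% lower. The median log2 ratio was 0.43 for the 9 genes and -0.02 for all genes.

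The FOS genes differed by more than the JUN genes in these cells. Fos had 1044 Mr1-/- and 617 Mr1+/+ UMIs, a ratio of 1.64 (1.48 to 1.81). Its UMIs came from 275 of 786 Mr1-/- microglia-like cells (35.0%) and 219 of 730 Mr1+/+ ones (30%), against 1.04% and 0.696% in oligodendrocyte-like cells, the large class with the smallest share in both libraries. Median depths were 3678 and 3953 UMIs in microglia-like and 4181.5 and 4354 UMIs in oligodendrocyte-like cells. The microglia-like shares differed by 4.99 points (0.265 to 9.66). After thinning to 1500 UMIs they were 19.8% and 15.3% (0.435 to 8.48 points). Among cells with at least 1500 UMIs, not thinned, they were 36.1% and 33.9%, with an interval that includes 0 (-2.81 to 7.30 points). Fosb, a close relative of Fos, was at 19.5 CPM (78 UMIs) against 9.81 CPM (38 UMIs), a ratio of 1.99 (1.33 to 3.01). The 5 cells with the most Fos held 129 of the 1044 and 68 of the 617 UMIs, and without them the ratio was 1.61.

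The JUN genes, which encode the partners of FOS, differed by less and with far more UMIs. Jun had 3970 and 3104 UMIs (ratio 1.24, 1.18 to 1.30), Junb 3057 and 2522 (1.17, 1.11 to 1.24) and Jund 3412 and 2770 (1.19, 1.134 to 1.255). None of these was at least 25% higher. Atf3, which can pair with JUN and often represses, was at 62.0 CPM in Mr1-/- and 36.9 CPM in Mr1+/+ cells (1.68, 1.36 to 2.08). Egr1 was at 47.5 and 24.3 CPM (1.96, 1.52 to 2.53), and Ier2 at 130 and 94.2 CPM (1.38, 1.21 to 1.59). Thinning moved Egr1 more than the others: with each cell thinned to 1500 UMIs its log2 ratio was 0.35, from 51 and 32 UMIs, against 0.75 with all UMIs. Whether depth or the counting error of the random draw moved Egr1 was not tested. Dusp1 was the exception, with 86.7 and 81.3 CPM and an interval that includes no difference (1.07, 0.913 to 1.246). Its direction turned in 3 of 12 alternatives: its log2 ratio was -0.06 without the cells that carried border macrophage or neutrophil markers, -0.06 with doublets kept and -0.02 with each cell weighing the same.

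**Figure D2:**
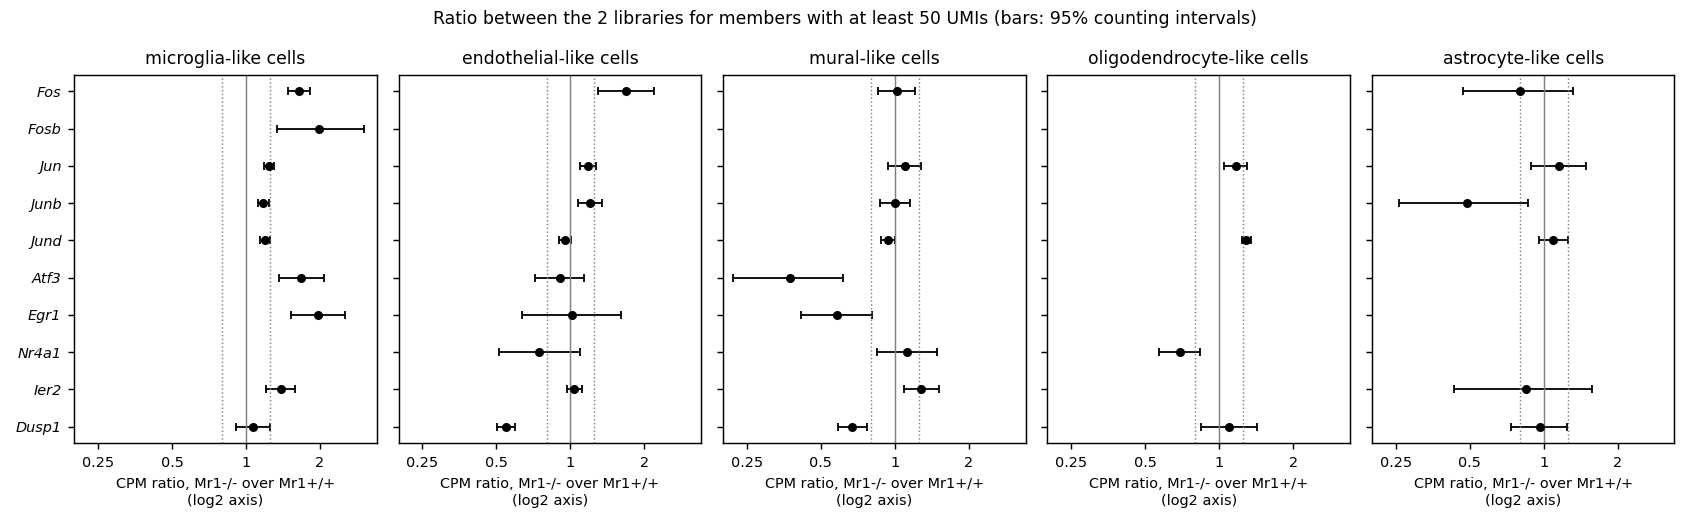
Ratio of levels, Mr1-/- over Mr1+/+ (log2 axis), for each gene with at least 50 UMIs in a class; bars are 95% counting intervals, the solid line marks no difference and dotted lines mark 25% higher and 20% lower. In microglia-like cells 9 of 9 genes lie above 1, while Dusp1 lies at 0.545 in endothelial-like and 0.670 in mural-like cells.

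Within microglia-like cells the sum of the 10 genes was higher in the Mr1-/- library in each of 3 clusters. In the cluster led by Tmem119 and C1qa (490 Mr1-/- and 390 Mr1+/+ cells) the ratio of the sum was 1.22 (1.17 to 1.27), and Fos was at 1.44 (1.23 to 1.67) and Fosb at 3.58 (1.70 to 8.41). In the cluster led by Ccl12 and Cx3cr1 (232 and 220 cells) the sum was at 1.28 (1.23 to 1.32), with Egr1 at 2.86 (2.0 to 4.15), Atf3 at 1.92 (1.46 to 2.54) and Ier2 at 1.56 (1.30 to 1.86). Egr1 and Ier2 were at 1.21 (0.819 to 1.79) and 1.10 (0.879 to 1.37) in the Tmem119-led cluster. A small cluster led by Ccl4 and Lyz2 (64 and 120 cells), whose cells had medians of 1255 and 1119 UMIs, had Fos at 456 and 91.6 CPM from 42 and 15 UMIs (4.98, 2.70 to 9.66). Dusp1 was at 2.07 (1.24 to 3.50) in it, against 1.04 in both other clusters.

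Markers of other cells in this class also differed between the libraries. The 5 neutrophil markers summed to 540 UMIs (135 CPM) in Mr1-/- and 78 UMIs (20.1 CPM) in Mr1+/+ microglia-like cells, with Ly6g and Camp at 0 in the Mr1+/+ library. The 6 border macrophage markers summed to 52.5 and 48.8 CPM, the 7 oligodendrocyte markers to 80.2 and 164 CPM, and the 6 T or NK cell markers were at 0 in both. Without the 14 Mr1-/- and 10 Mr1+/+ cells that carried at least 3 border macrophage or neutrophil markers, the log2 ratio of the summed genes was 0.31, against 0.32 with them.

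**Figure D3:**
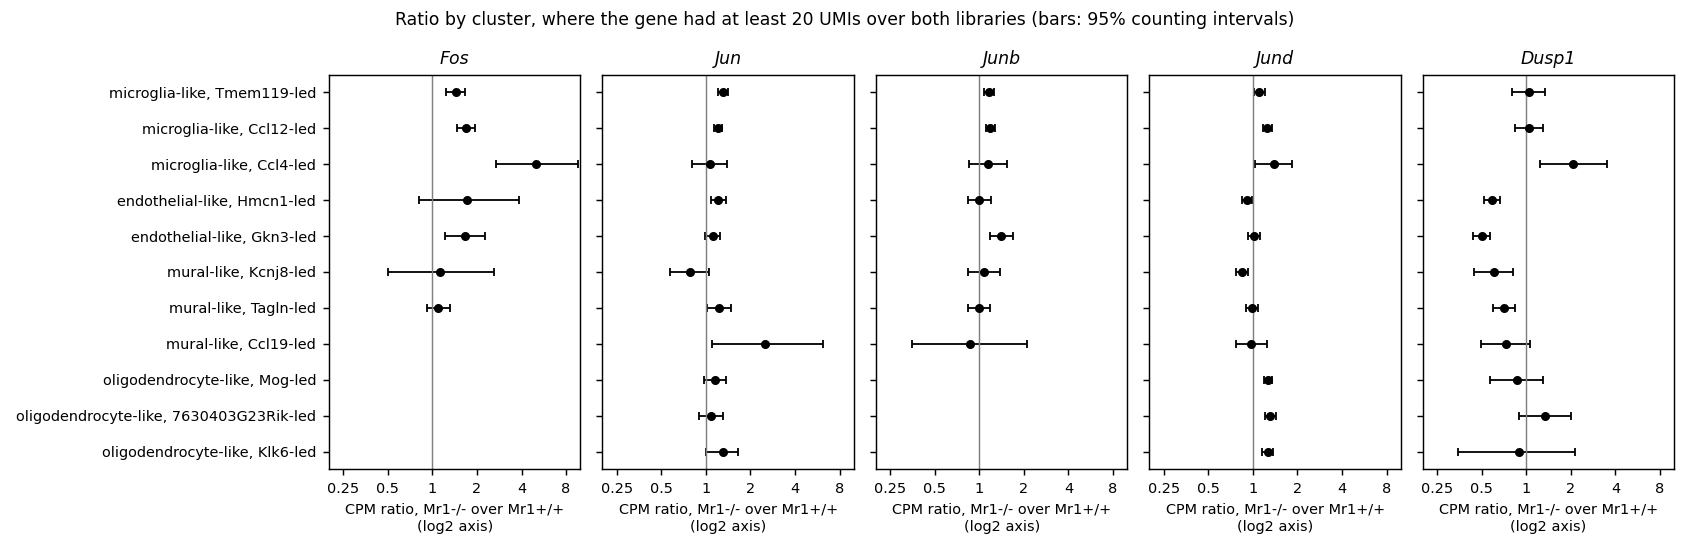
Ratio of levels, Mr1-/- over Mr1+/+ (log2 axis), of 5 genes within clusters named by class and leading gene, for clusters with at least 50 cells in each library and genes with at least 20 UMIs over both; bars are 95% counting intervals. Fos lies above 1 in each of the 3 microglia-like clusters, from 1.44 to 4.98, and Dusp1 lies below 1 in both endothelial-like and all 3 mural-like clusters shown; the Plvap-led endothelial-like cluster, with fewer cells and Dusp1 at 1.22, is not drawn.

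Endothelial-like cells showed a different profile, in which Dusp1 stood apart from the rest. Dusp1 was at 244 CPM (875 UMIs) in Mr1-/- and 448 CPM (1547 UMIs) in Mr1+/+ cells, a ratio of 0.545 (0.501 to 0.592). It was detected in 32.3% of 1478 Mr1-/- and 47.5% of 1323 Mr1+/+ cells, a difference of -15.3 percentage points (-18.8 to -11.7), with medians of 2346.5 and 2545 UMIs per cell. Oligodendrocyte-like cells, which had the smallest shares, were at 8.77% and 8.36% with deeper cells. After thinning to 1500 UMIs the endothelial-like shares were 23.5% and 36.3%. Dusp1 was lower in the clusters led by Hmcn1 (0.588, 0.519 to 0.666), Gkn3 (0.498, 0.439 to 0.565), Ifit3 (0.387, 0.242 to 0.612) and Lrg1 (0.185, 0.0562 to 0.478). In the Plvap-led cluster it was at 417 and 342 CPM (1.22, 0.775 to 1.94) from 56 and 32 UMIs.

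Of the 5 AP-1 genes compared in endothelial-like cells, 3 were higher and 2, Jund and Atf3, were slightly lower. Fos was at 45.8 against 27.2 CPM (164 and 94 UMIs, ratio 1.68, 1.30 to 2.19), yet it was detected in 4.26% of Mr1-/- and 3.70% of Mr1+/+ cells. Without the 1% of cells with the most UMIs of the 10 genes its log2 ratio was 0.29, against 0.58 with all cells, while without the 5 cells of each library with the most Fos its ratio was 1.93. Jun (1.18, 1.09 to 1.28) and Junb (1.20, 1.07 to 1.35) were higher, and Jund was at 0.951 (0.898 to 1.01). By cluster, Junb was at 1.41 (1.18 to 1.68) in the Gkn3-led but 0.996 (0.834 to 1.19) in the larger Hmcn1-led cluster. Junb was detected in 22.5% of Mr1-/- and 24.3% of Mr1+/+ cells, and in 17.7% and 16.4% after thinning to 1500 UMIs. Both differences have intervals that include 0. Ier2 (1.04), Atf3 (0.903), Egr1 (1.01) and Nr4a1 (0.748, 0.510 to 1.09) had intervals that include 1. In all, 5 of 9 genes were higher, 1 was at least 25% higher and 1 at least 20% lower, against 54.3%, 4.06% and 3.78% of the 8973 genes compared. Erythroid markers summed to 10.3 CPM in Mr1-/- and 64.3 CPM in Mr1+/+ endothelial-like cells, with Alas2 at 0 in both, and mural markers to 34.6 and 101 CPM. Their part in the result was not tested.

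Mural-like cells (971 Mr1-/- and 965 Mr1+/+) also had less Dusp1, together with less Egr1 and Atf3. Dusp1 was at 141 and 210 CPM (0.670, 0.584 to 0.767), and at 0.603 in the Kcnj8-led, 0.703 in the Tagln-led and 0.724 (0.492 to 1.06) in the Ccl19-led cluster. Kcnj8 marks pericytes, and Tagln smooth muscle. Dusp1 was detected in 25.2% of Mr1-/- and 30.4% of Mr1+/+ mural-like cells. After thinning to 1500 UMIs the shares were 17.8% and 20.4%, a difference whose interval includes 0 (-6.41 to 1.34 points). The thinned levels of Dusp1 were 145 and 184 CPM. Over 12 alternatives its log2 ratio ran from -0.56 to -0.33. Egr1 had 58 Mr1-/- and 111 Mr1+/+ UMIs (0.580, 0.414 to 0.803). Of the 111, 22 came from 1 cell, and without the 5 highest cells of each library the ratio was 0.734. By cluster, Egr1 was at 0.453 (0.294 to 0.684) in the Tagln-led, 0.787 (0.381 to 1.60) in the Kcnj8-led and 3.06 (0.763 to 17.6) in the Ccl19-led cluster, the last from 9 and 3 UMIs. It was detected in 4.33% of Mr1-/- and 5.08% of Mr1+/+ mural-like cells, a difference whose interval includes 0 (-2.68 to 1.16 points). Atf3 had 22 and 65 UMIs (0.375, 0.220 to 0.617), in 2.06% and 5.08% of cells, against 0.104% and 0.209% in oligodendrocyte-like cells.

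Fos in mural-like cells was at 106 and 105 CPM (1.02, 0.854 to 1.21), and its direction turned with the choice of cells. Its log2 ratio was -0.59 among cells with at most 5% mitochondrial UMIs and 0.29 without the 1% of cells with the most UMIs of the 10 genes. Junb (1.002), Jun (1.10) and Nr4a1 (1.12) had intervals that include 1, and Jund was at 0.936 (0.878 to 0.998). Nr4a1 was at 1.59 (1.05 to 2.43) in the Kcnj8-led cluster and 0.639 (0.389 to 1.03) in the Tagln-led cluster. Ier2 was higher, with 132 and 103 CPM (1.28, 1.09 to 1.51). In all, 5 of 9 genes were higher, 1 was at least 25% higher and 3 were at least 20% lower, against 51.8%, 4.53% and 4.78% of the 8622 genes compared. Endothelial markers summed to 60.7 and 71.0 CPM and microglial markers to 65.6 and 94.2 CPM in these cells, all 7 of each list with a UMI in both libraries, and their part in the result was not tested.

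In oligodendrocyte-like cells (958 Mr1-/- and 1436 Mr1+/+) most of the sum of the 10 genes, 1151 and 937 CPM, was Jund. It had 3940 UMIs (940 CPM) in Mr1-/- and 4564 UMIs (729 CPM) in Mr1+/+ cells, a ratio of 1.29 (1.23 to 1.35). Jund was higher in each of 4 clusters, at 1.26 in the Mog-led, 1.31 in the 7630403G23Rik-led, 1.26 in the Klk6-led and 1.94 (1.36 to 2.75) in the shallow Prr18-led cluster, which held 27 Mr1-/- and 157 Mr1+/+ cells. Jun was at 138 and 119 CPM (1.17, 1.04 to 1.30). Nr4a1 was lower, at 37.2 and 54.0 CPM (0.689, 0.566 to 0.835), in 14.1% and 19.2% of cells, against 0.419% and 2.09% in astrocyte-like cells. In cells thinned to 1500 UMIs the shares were 6.57% in both libraries and the log2 ratio was -0.07, from 64 and 93 UMIs. With each cell of at least 1500 UMIs weighing the same and no thinning, the log2 ratio of Nr4a1 was -0.49. Dusp1 was at 24.3 and 22.2 CPM (1.10, 0.840 to 1.42), and the 6 other genes had fewer than 50 UMIs. Of the 4 genes compared, 3 were higher, 1 was at least 25% higher and 1 at least 20% lower, against 45.5%, 1.30% and 2.48% of 9002 genes. Microglial markers summed to 56.0 and 51.3 CPM and mural markers to 9.78 and 28.6 CPM in these cells, and their part in the result was not tested.

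Astrocyte-like cells (477 Mr1-/- and 957 Mr1+/+) had the lowest sum, 384 against 381 CPM (1.01, 0.911 to 1.12). Junb was at 10.2 CPM (15 UMIs) against 21 CPM (64 UMIs), a ratio of 0.488 (0.258 to 0.865), and 12 of the 64 UMIs came from 1 cell. Junb was detected in 2.73% of Mr1-/- and 4.28% of Mr1+/+ cells, a difference whose interval includes 0 (-3.42 to 0.626 points). After thinning to 1500 UMIs the shares were 1.32% and 1.65%. Fos, Jun, Jund, Ier2 and Dusp1 had ratios from 0.798 to 1.15 with intervals that include 1. Of the 6 genes compared, 2 were higher, none was at least 25% higher and 1 was at least 20% lower, against 46.0%, 4.22% and 6.68% of 8485 genes. Oligodendrocyte markers summed to 66.9 and 120 CPM and microglial markers to 96.3 and 121 CPM in these cells, and their part in the result was not tested.

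The 3 smaller classes allow fewer statements. In neuron-like cells Jun (1.03), Jund (1.13) and Dusp1 (1.16) could be compared, and all 3 intervals include 1. In ependymal-like cells (72 and 59), the ciliated cells of the ventricle wall, Jund was at 898 and 605 CPM (1.48, 1.26 to 1.76) and Jun at 117 and 132 CPM (0.891, 0.588 to 1.35). In neuroblast-like cells (54 and 64) Jun was at 242 and 131 CPM (1.84, 1.18 to 2.91) and Jund at 0.915 (0.717 to 1.17). Oligodendrocyte markers summed to 60.4 and 1806 CPM in neuroblast-like cells (15 and 454 UMIs; 4 and 7 of 7 markers with a UMI, Mog, Mag and Cldn11 at 0 in the Mr1-/- library) and to 46.5 and 186 CPM in ependymal-like cells, and their part in the results was not tested. Among all genes compared in these classes, 23.2%, 30.1% and 41.1% were at least 25% higher or 20% lower, so such ratios are common there.

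The number of the 10 genes found in the same cell was compared after thinning each cell to 1500 UMIs, which left out 47 Mr1-/- and 101 Mr1+/+ microglia-like cells. A mean of 2.45 genes was found per Mr1-/- and 2.21 per Mr1+/+ microglia-like cell. At least 5 of them were found in 65 of 739 Mr1-/- cells (8.80%, exact interval 6.85% to 11.1%) and 33 of 629 Mr1+/+ cells (5.25%, 3.64% to 7.29%), and in 33.2% and 25.2% of cells without thinning. The share of cells with none of the genes was 8.80% and 7.79%. In endothelial-like cells the mean was 1.92 and 2.0 and the share with at least 5 genes was 3.87% and 3.03%, against 8.73% and 10.4% before thinning, so no order is read from it. The means in mural-like cells were 1.45 and 1.42, in oligodendrocyte-like cells 1.01 and 0.957, and in astrocyte-like cells 0.523 and 0.501. With all UMIs counted, the tenth of microglia-like cells with the most UMIs of these genes held 31.3% of such UMIs in the Mr1-/- and 34.4% in the Mr1+/+ library.

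**Figure D4:**
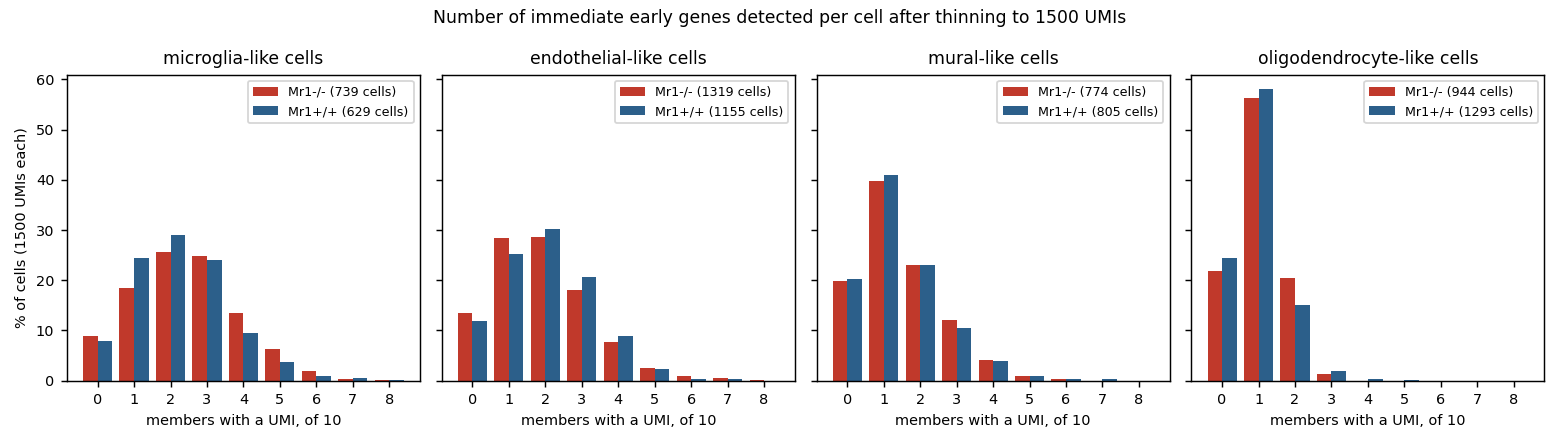
Percentage of cells (vertical axis) by the number of the 10 genes with a UMI after thinning to 1500 UMIs (horizontal axis), in 4 classes of the Mr1-/- and Mr1+/+ libraries; each bar is 1 library, with no replicate. In microglia-like cells the bars at 4, 5 and 6 genes are taller in the Mr1-/- library, and in oligodendrocyte-like cells most cells have 1 gene.

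Across single cells the genes were only weakly correlated. Fos and Junb had a mean r of 0.15 over 10 groups of a class and a library in thinned cells, with a range of -0.02 to 0.32. The non-member gene most like the summed genes across cells was Rhob, another immediate early gene, with a mean r of 0.14 among 2087 genes. The next 9 lay between 0.07 and 0.09 and included the ubiquitin gene Ubb and the chaperone gene Hsp90ab1. Such values in sparse counts that share library and depth are no finding. Over the 16 class and library sums, the genes closest to the summed genes on the log2 scale were Arpc2 (r 0.94), Zfx, Vps4b, Capzb and Zbtb7a (0.88 to 0.89). The members' own r ranged from 0.16 for Nr4a1 to 0.87 for Jun.

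Most lists of other genes of the same pathways had medians near 0 in microglia-like cells. Over all 8866 genes compared in this class, 43.4% were higher. Of 23 measured members of a list of other immediate early genes, 11 were higher and 12 lower there, with a median log2 ratio of -0.01. Nfkbiz, an inhibitor-like regulator of NF-kB targets, was at 19.5 and 10.1 CPM (1.94), and Klf10 had a ratio of 1.38. The small GTPase gene Rhob was at 2383 and 2623 CPM (0.909), Cebpb at 489 and 576 CPM (0.849), and the clock gene Per1 at a ratio of 0.752. Upstream kinases were centred near no difference (4 of 11 higher, median -0.01), with Rps6ka1 at 0.945 and Map2k2 at 0.996. Upstream transcription factors were similar (3 of 7 higher, median -0.01), with Creb1 at 37.0 and 55.5 CPM (0.667). Of the other AP-1 family genes 3 of 8 were higher (median -0.02), among them Batf3 at 1.24. Of the MAP kinase feedback genes 2 of 4 were higher, with Dusp6 at 167 and 206 CPM (0.812) and Dusp16 at 1.45. The mRNA decay list, whose products shorten the life of such transcripts, was higher in 4 of 5 genes (median 0.18). In it Zfp36 was at 663 and 529 CPM (1.252) and Btg2 at 415 and 351 CPM (1.18).

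In endothelial-like cells the MAP kinase feedback genes, a list that does not hold Dusp1, were lower too. Of the 12 listed, 5 were measured and all 5 were lower (median -0.21). Counted after 10 CPM was added, 1 of the 5 was at least 20% lower, against 3.78% of all genes compared. Dusp6, a phosphatase of ERK, was at 37.4 and 56.8 CPM (0.659), Dusp8 at 27.6 and 35.9 CPM (0.769) and the inhibitor gene Spry1 at 46.1 and 46.9 CPM (0.981). Of the other immediate early genes 18 of 25 were lower (median -0.20). Among them were Klf2, a factor induced by blood flow, at 1933 and 2770 CPM (0.698), Nfkbia at 1029 and 1299 CPM (0.792) and Cebpd at 150 and 272 CPM (0.551), while Errfi1 had a ratio of 1.55. The AP-1 relative Maff was at 53.0 and 86.4 CPM (0.614). In mural-like cells 17 of 22 such genes were lower (median -0.19), with Cebpd at 362 and 519 CPM (0.699) and Sgk1 at 7.38 and 19.6 CPM (0.377). In oligodendrocyte-like cells 13 of 15 were lower (median -0.14), with the kinase gene Sgk1 at 902 and 2172 CPM (0.416) and Nfkbia at 142 and 254 CPM (0.559), while Rhob was at 1911 and 1624 CPM (1.18). In astrocyte-like cells 9 of 13 were lower (median -0.25), with Cebpd at 71.0 and 126 CPM (0.565). Over all genes compared, 54.3% were higher in endothelial-like, 51.8% in mural-like, 45.5% in oligodendrocyte-like and 46.0% in astrocyte-like cells, the rest being lower.

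Heat shock genes, which encode chaperones induced by protein damage, had lower medians in the Mr1-/- library in all 5 large classes. They were lower in 9 of 12 genes in microglia-like, 11 of 12 in endothelial-like, 10 of 12 in mural-like, 11 of 11 in oligodendrocyte-like and 7 of 9 in astrocyte-like cells, with medians of -0.22, -0.29, -0.27, -0.34 and -0.13. The medians over all genes compared lay between -0.02 and 0.02. Of all genes compared, 43.4% were higher in microglia-like, 54.3% in endothelial-like and 51.8% in mural-like cells, the rest being lower. The share higher was 45.5% in oligodendrocyte-like and 46.0% in astrocyte-like cells. In microglia-like cells the heat shock genes included Hspa8 at 1217 and 1397 CPM (0.871) and Hsph1 at 13.2 and 25.3 CPM (0.524). Hspa1a (1.15) and Hspa1b (1.23), near-identical copies whose reads counting could split, were higher there.

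**Figure D5:**
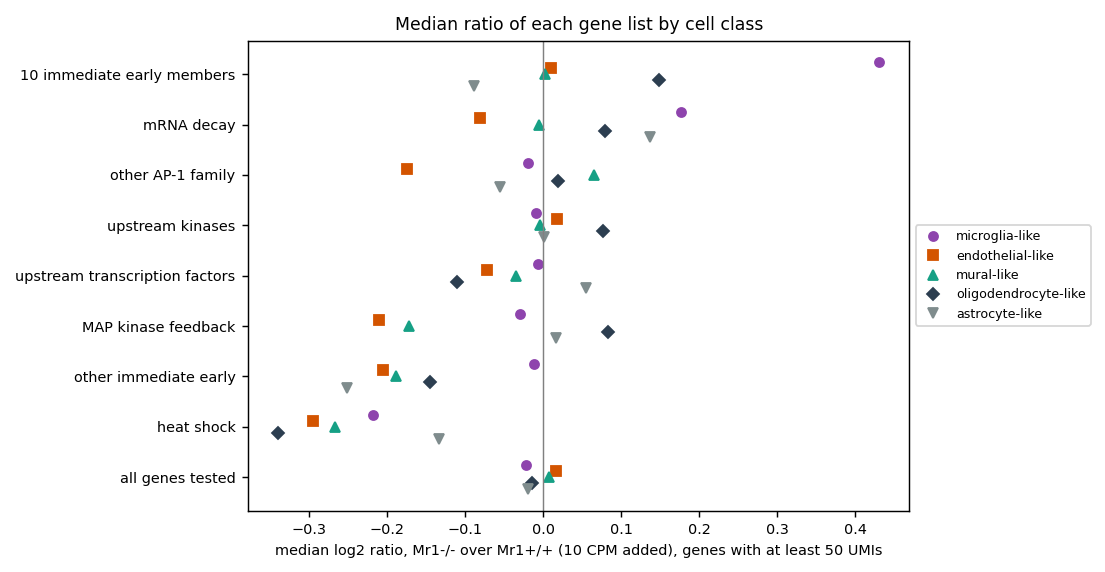
Median log2 ratio, Mr1-/- over Mr1+/+ with 10 CPM added, of each gene list in 5 cell classes, over genes with at least 50 UMIs in the class. The 10 immediate early genes in microglia-like cells lie at 0.43, while heat shock genes lie from -0.34 to -0.13 and all genes compared near 0.

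Some of the counts could hold reads of overlapping genes, since the sources used here do not say whether the authors' counting used strand. In GENCODE M21 (mm10) Fos lies on chromosome 12 at 85473890 to 85477273 and overlaps no other gene. Jun (chromosome 4, 95049034 to 95052222) overlaps Junos, Junb (chromosome 8, 84974484 to 84978718) overlaps Prdx2, Jund (chromosome 8, 70698949 to 70700616) overlaps Gm11175 and Atf3 (chromosome 1, 191170296 to 191218039) overlaps Gm24748, each on the opposite strand. Dusp1 (chromosome 17, 26505590 to 26562128) overlaps Ergic1 and Gm8225 on the opposite strand and AC122252.4 and AC122252.1 on its own. Fosb, Egr1, Nr4a1 and Ier2 overlap none.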

How the data were processed

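Single live cells sorted from hippocampus were profiled by a 5' capture kit of 10x Genomics (per the labels' protocols) in 1 Mr1-/- and 1 Mr1+/+ library. The authors deposited UMI counts by gene and barcode, not normalized. Cell Ranger 3.1.0 is named per the file headers, and Cell Ranger 5.1.0, STAR and mm10 per the submitters' processing notes. Cells with at least 300 genes and at most 10% mitochondrial UMIs were kept, and doublets called by Scrublet (expected rate 0.05) were removed, 171 (3.24%) in the Mr1-/- and 335 (5.29%) in the Mr1+/+ library. Scanpy 1.11.5 (Python 3.11.15) normalised each cell to 10000, took 2000 variable genes, 30 principal components and 15 neighbours, and clustered with Leiden (leidenalg 0.10.2) at resolution 1.0 and seed 7, without integration. The 10 genes and 30 other immediate early genes were left out of the clustering. Each of 25 clusters was named from fixed markers if at least 3 were found in 10% of its cells. These names are rebuilt and can differ from the study's.

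UMIs were summed per class and library. Counts carry exact Poisson, shares exact Clopper-Pearson and ratios exact conditional binomial 95% intervals, for counting error only, and a count of 0 allows up to 3. Differences of shares carry Newcombe intervals. Genes needed at least 50 UMIs over both libraries in a class to be compared, and 10 CPM was added before log2 ratios and before genes at least 25% higher or 20% lower were counted. The code was tested on simulated data. All 10 genes were named by rule, and of 8 other lists up to 3 genes with the most UMIs and up to 2 with the largest ratio each way in a class. The genes, lists and settings were chosen with earlier results of these data known, so no pattern is independent support for those results. Alternatives changed the mitochondrial limit, doublet removal, resolution, scaling, added CPM, minimum of UMIs, weight of cells and thinning, and left out the highest cells.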

Additional observations from a re-analysis of the deposited data

Results flagged for a closer look

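Atf3 and Egr1 had opposite directions in different cell classes. Atf3 had a ratio, Mr1-/- over Mr1+/+, of 1.68 in microglia-like and 0.375 in mural-like cells. Egr1 had a ratio of 1.96 in microglia-like and 0.580 in mural-like cells. Of its 111 Mr1+/+ mural-like UMIs, 22 came from 1 cell, and without the 5 highest cells of each library the ratio was 0.734. By mural-like cluster it was at 0.453 (Tagln-led), 0.787 (Kcnj8-led) and 3.06 (Ccl19-led), and the intervals of the last 2 include 1. Each class had 1 library per genotype, and the difference between classes was not tested. In the alternatives run, the log2 ratio of Atf3 stayed between 0.37 and 0.67 in microglia-like and between -1.24 and -0.75 in mural-like cells, and that of Egr1 between 0.35 and 0.88 in microglia-like and between -0.60 and -0.27 in mural-like cells.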

How the results depend on the processing

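No paired analysis was possible because there is 1 library per genotype, and for the same reason none could be left out. Over 12 alternatives the log2 ratio of the summed genes kept its sign in microglia-like (0.31 to 0.35), oligodendrocyte-like (0.25 to 0.32), endothelial-like (-0.12 to -0.07), mural-like (-0.13 to -0.05), neuron-like and ependymal-like cells. It turned in 1 of 12 for astrocyte-like and 2 of 12 for neuroblast-like cells, where it was 0.38 with each cell weighing the same against 0.04. Added after the data were seen were leaving out cells with border macrophage or neutrophil markers, leaving out clusters of shallow cells, and weighing cells of at least 1500 UMIs equally. Scaling by the median of ratios moved all ratios of a class by less than 0.05 (log2).

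Counts past a fold moved in classes with few members near the marks. Thinning to 1500 UMIs left 3 genes, not 5, at least 25% higher in microglia-like cells. Fosb, with 25 and 9 UMIs after thinning (22.6 and 9.54 CPM), fell below the minimum of 50 UMIs and was not counted. In oligodendrocyte-like cells thinning left 0 at least 25% higher and 0 at least 20% lower, where each count was 1. In mural-like cells the count at least 25% higher was 1, but 2 with no minimum of UMIs, 2 at 5% mitochondrial UMIs and 2 with cells weighing the same, and 0 with median-of-ratios scaling, 0 with doublets kept and 0 after thinning. The count of mural genes that were higher, 5, was 2 at 5% and 3 at 20% mitochondrial UMIs, and the count at least 20% lower, 3, was 1 with a minimum of 200 UMIs. In endothelial-like cells 2 genes, not 1, were at least 20% lower with 1 CPM added, and 0, not 1, were at least 25% higher without the 1% of cells with the most UMIs of these genes. In astrocyte-like cells the count at least 20% lower, 1, was 2 with no minimum, 2 with cells weighing the same and 2 without the top 1% of cells. It was 0 with a minimum of 200 UMIs and 0 after thinning. In both of these Junb fell below the minimum, with 15 and 64 UMIs in all and 6 and 24 after thinning. With doublets kept, 1 gene, not 0, was at least 25% higher. A gene that fell below a minimum of UMIs left the count, and other causes were not tested. Depth limits Nr4a1, Fosb, Egr1 and Atf3 most, which had fewer than 50 UMIs in several classes.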

Other observations

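Classes too small for comparison also held these genes. Oligodendrocyte precursor-like cells (33 Mr1-/- and 42 Mr1+/+) had a sum of 742 and 524 CPM from 109 UMIs in each library, with Jun at 31 and 28 UMIs and Jund at 51 and 49 UMIs. Fibroblast-like cells (32 and 29) had 659 and 886 CPM, from 78 and 98 UMIs. The unnamed cells (80 and 112), which had medians of 1005.5 and 782 UMIs, had 1823 and 1911 CPM.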
